A study of Mus musculus with 12 samples.

Results

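Renal cortex of uninjured mice that lack the glucocorticoid receptor (GR) in the tubular epithelium was compared with renal cortex of uninjured control mice. The comparison rests on 6 of the 12 Affymetrix arrays of the series, chosen by their titles: 3 labelled as GR KO, healthy and 3 as control, healthy. Control mice carried nr3c1 flox/flox, in which the gene of the receptor, Nr3c1, is flanked by loxP sites. GR-deficient mice had these alleles too and in addition Pax8-Cre, in which the recombinase is driven by the promoter of the kidney and thyroid transcription factor Pax8. The control mice had no Cre, so a difference between the genotypes includes any effect of the recombinase itself. None of these 6 arrays is from a mouse injected with glycerol. The other 6 arrays are from mice of the same 2 genotypes 24 hours after an intramuscular glycerol injection, a model of acute kidney injury. They share the estimate of the spread and are used below as separate samples. Strain, age and sex are not given in the labels, and the labels do not say whether the numbered replicates are different animals. The p-values therefore cover the spread among these arrays alone, part of which may be technical.

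The GR is a nuclear receptor that binds corticosterone in mice, moves to the nucleus and raises or lowers transcription of its target genes. In the kidney it is present along the whole nephron, while the related mineralocorticoid receptor acts mainly in the distal nephron, where 11-beta-hydroxysteroid dehydrogenase 2 removes glucocorticoid. The sister enzyme 11-beta-hydroxysteroid dehydrogenase 1 works in the opposite direction and regenerates active hormone inside the cell.

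Expression is given as the deposited log2 values, and each difference is GR-deficient minus control on the log2 scale with the standard error (SE) of the limma fit. For each of 19938 genes the probe set with 1 gene symbol and the highest mean over the 12 arrays was used. The medians of the 6 healthy arrays lay between 7.02 and 7.06, and the number of arrays limits the precision. GR-deficient replicate 1 stood apart from the other healthy arrays. On the first principal component of the 6 arrays, which held 50.8% of their variance, it lay at 36.88, against 2.96 and -2.61 for the other GR-deficient arrays and -15.35 to -8.90 for the controls. Proximal tubule markers averaged 11.79 to 12.49 on the 6 arrays, against 7.134 to 7.185 over all genes. Calls that were lost when this array was left out, and the medians of the gene lists farthest from 0, are given with and without it.

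Few genes passed the test between the genotypes in uninjured cortex. Of 19938 genes, 29 passed an adjusted p of 0.05 (limma, Benjamini-Hochberg, 3 arrays per group), which is 0.145% of those tested. Of these, 22 were lower (0.11%) and 7 were higher (0.0351%) in GR-deficient mice, and 13 differed at least 2-fold (0.0652%), 10 lower and 3 higher. At an unadjusted p of 0.05, 2124 genes passed (10.7%), 805 higher (4.04%) and 1319 lower (6.62%). The 3 arrays of one genotype lay entirely above or below those of the other for all 29 genes, as they did for 18.6% of all genes tested. Whether a gene passed often changed when 1 array was left out, from either group. Each such fit also has fewer arrays, so a lost call is not in itself particular to the array left out. The count was 11 without GR-deficient replicate 1, all of them among the 29, and 115 without GR-deficient replicate 3, 28 of the 29 among them. It was 18 without GR-deficient replicate 2, and 10, 15 and 15 without control replicates 1, 2 and 3. All 29 kept their sign in each of these 6 fits, and 8 passed in every one: Nr3c1, Hsd11b1, Akr1c18, Chrdl1, Fam217a and Tspan13, which were lower, and Pigr and Rdh16f2, which were higher.

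**Figure D1:**
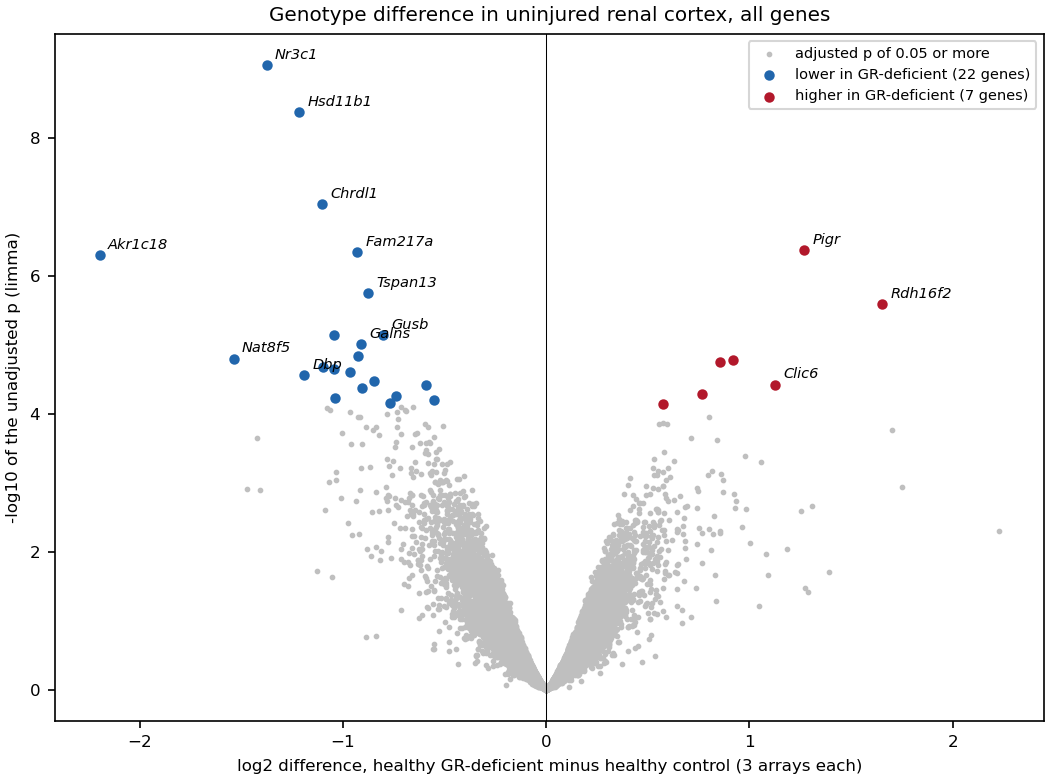
Each point is a gene, with the log2 difference between healthy GR-deficient and healthy control cortex on the x axis and -log10 of the unadjusted limma p on the y axis. Blue points are the 22 genes that were lower, red points the 7 that were higher at an adjusted p of 0.05. Nr3c1 and Hsd11b1 have the smallest p, and Akr1c18 the largest decrease among the called genes.

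Nr3c1 itself was the gene with the smallest p. Its log2 values were 9.65, 9.48 and 9.52 in control mice and 8.18, 8.13 and 8.21 in GR-deficient mice. The GR-deficient arrays lay within a narrow band and far below the controls, with a difference of -1.38 ± 0.097 (adjusted p = 1.73e-05), or 38.5% of the control signal on the linear scale. Cortex also holds cells in which Pax8-Cre is not active, and where the probes lie relative to the deleted part was not analysed here. In bulk tissue, fewer cells of a type and less RNA per cell cannot be told apart.

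Among enzymes that make or clear steroid hormones, 3 were lower. Hsd11b1, which encodes 11-beta-hydroxysteroid dehydrogenase 1, had values of 10.42, 10.37 and 10.37 in control and 9.15, 9.09 and 9.28 in GR-deficient cortex. The controls spanned less than 0.1 and all GR-deficient arrays were more than 1 below them, a difference of -1.21 ± 0.097 (adjusted p = 4.19e-05). Akr1c18, the 20-alpha-hydroxysteroid dehydrogenase that inactivates progesterone, read 10.11, 9.96 and 10.08 in control and 8.07, 7.86 and 7.62 in GR-deficient mice. It had the largest decrease among the called genes, 4.59-fold (-2.20 ± 0.255, adjusted p = 0.00167). Hsd17b11, a 17-beta-hydroxysteroid dehydrogenase of lipid droplets, read 12.16, 12.16 and 12.26 in control and 10.75, 11.28 and 11.41 in GR-deficient mice (-1.05 ± 0.169, adjusted p = 0.0257). GR-deficient replicate 1 was the lowest of its arrays, and without it the difference was -0.85 and no longer passed (adjusted p = 0.119), as in 5 of the 6 leave-one-out fits. In the list of corticosteroid receptors and steroid handling, 4 of 19 measured members passed, all lower: Nr3c1, Hsd11b1, Akr1c18 and Hsd17b11. Over all genes 0.11% were called lower. Nr3c1 is the deleted gene itself, and the list was written with earlier results of these data known. Nothing is therefore read from the share of the list that passed. The median difference of the list was -0.18, against -0.01 over all genes, and -0.03 without GR-deficient replicate 1. The mineralocorticoid receptor gene Nr3c2 (0.01 ± 0.122, adjusted p = 0.985) and Hsd11b2, the distal enzyme (-0.13 ± 0.126, adjusted p = 0.78), did not pass. Akr1c18 belongs to a family of close relatives, and signal from another member on the same probes cannot be told apart.

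The promoters of Hsd11b1 and Akr1c18 are shown because these genes were lower by every leave-one-out fit and, as given below, in injured cortex too. Sequences are from RefSeq (GRCm38.p6), from 250 bases before to 50 after the start site, written 5' to 3' on the gene's strand. They lie at chr1:193242311-193242610 (minus strand) and chr13:4150597-4150896 (minus strand). Capitals in Hsd11b1 mark the NRF2 motif TGACNNNGC, found on the other strand, and in Akr1c18 the D-box TTATGTAA, bound by factors such as Dbp, also on the other strand.
Hsd11b1: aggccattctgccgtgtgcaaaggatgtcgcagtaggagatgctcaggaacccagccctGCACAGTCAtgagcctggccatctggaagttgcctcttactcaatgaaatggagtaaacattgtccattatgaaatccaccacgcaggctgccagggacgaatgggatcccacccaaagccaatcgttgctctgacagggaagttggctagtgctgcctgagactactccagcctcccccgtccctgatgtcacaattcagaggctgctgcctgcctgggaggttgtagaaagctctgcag
Akr1c18: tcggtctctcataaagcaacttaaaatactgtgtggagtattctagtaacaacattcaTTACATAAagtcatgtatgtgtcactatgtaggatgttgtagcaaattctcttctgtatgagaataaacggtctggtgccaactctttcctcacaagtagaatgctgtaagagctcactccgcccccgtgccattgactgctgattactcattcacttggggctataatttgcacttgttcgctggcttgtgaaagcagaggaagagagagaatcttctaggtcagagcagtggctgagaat

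The remaining genes that were lower have varied roles. Dbp, a transcription factor that carries the circadian clock's rhythm to its output genes, read 11.37, 11.11 and 10.77 in control and 9.49, 10.33 and 9.85 in GR-deficient mice. The groups did not overlap, though both were spread widely, with a difference of -1.19 ± 0.197 (adjusted p = 0.0288). It lost its call without GR-deficient replicate 1 (-0.99, adjusted p = 0.164) and passed in 3 of the 6 leave-one-out fits. Chrdl1, a secreted antagonist of bone morphogenetic proteins, read 7.48, 7.64 and 7.44 against 6.59, 6.36 and 6.30 (-1.10 ± 0.112, adjusted p = 0.000599). Here GR-deficient replicate 1 was the highest of its group, and the difference was -1.19 without it. Podn, a small leucine-rich proteoglycan, fell by 1.10 ± 0.177 (adjusted p = 0.0257), and by 0.84 without GR-deficient replicate 1 (adjusted p = 0.0314). It passed in 2 of the 6 fits that left out 1 healthy array, and not without control replicates 1, 2 or 3 or GR-deficient replicate 2 (adjusted p from 0.0514 to 0.162). Its controls lay at 9.27, 8.88 and 9.02 and its GR-deficient arrays at 7.44, 8.13 and 8.30.

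Of the lower genes, 3 encode lysosomal hydrolases that degrade glycosaminoglycans. They are placed together after their values were seen, and other enzymes of the pathway were not tallied. Naglu, a lysosomal enzyme that was also looked at, did not pass (-0.51 ± 0.099, limma, adjusted p = 0.0614). Arsb, arylsulfatase B, read 12.33, 12.03 and 12.18 in control and 10.67, 11.23 and 11.53 in GR-deficient mice (-1.04 ± 0.184, adjusted p = 0.0446). Galns, a galactosamine sulfatase, read 10.91, 10.74 and 10.83 against 9.55, 9.999 and 10.18 (-0.91 ± 0.137, adjusted p = 0.0175). Gusb, beta-glucuronidase, read 9.28, 9.07 and 9.37 against 8.32, 8.32 and 8.67 (-0.80 ± 0.117, adjusted p = 0.0144). All 3 had their lowest value on GR-deficient replicate 1 (for Gusb at 8.32, level with replicate 2 after rounding). Without that array Galns passed (-0.73), while Arsb (-0.80, adjusted p = 0.159) and Gusb (-0.75, adjusted p = 0.0928) did not. Of the 6 fits that left out 1 healthy array, Galns passed in 4, Gusb in 2 and Arsb in 1.

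Other lower genes encode enzymes, transporters and signalling proteins. Nat8f5, of the N-acetyltransferase 8 family, had values of 10.41, 10.44 and 9.97 in control and 8.35, 8.88 and 8.98 in GR-deficient mice (-1.54 ± 0.241, adjusted p = 0.0233). It passed in 2 of the 6 fits that left out 1 healthy array, and without GR-deficient replicate 1 it did not (-1.34, adjusted p = 0.159). Agps, the peroxisomal enzyme of ether lipid synthesis, had values of 11.06, 10.77 and 10.88 against 9.48, 10.02 and 10.08 (-1.04 ± 0.152, adjusted p = 0.0144), and passed in 4 of these 6 fits. Guca2b, which encodes uroguanylin, a peptide that acts on epithelial guanylate cyclase, read 13.12, 13.22 and 13.19 against 12.59, 12.70 and 12.58. Its difference was small, -0.55 ± 0.099 (adjusted p = 0.0458), and it passed in 0 of the 6 fits (limma, adjusted p from 0.0563 to 0.179). Map2k6, a kinase that activates p38, had values of 9.27, 9.002 and 9.15 against 8.18, 8.58 and 8.45 (-0.74 ± 0.131, adjusted p = 0.0442). It passed in 1 of the 6 fits, and without GR-deficient replicate 1 it did not (-0.63, adjusted p = 0.219). The tetraspanin Tspan13 (-0.88 ± 0.114, adjusted p = 0.00506) and Fam217a (-0.93 ± 0.107, adjusted p = 0.00167) passed in every such fit. Slc41a2, a magnesium transporter (-0.85), the protocadherin Pcdh17 (-0.91), Naaladl2 (-0.97), Cspg4b (-0.93), the microtubule-associated Eml5 (-0.77) and Cfap20dc (-0.59) were lower with adjusted p from 0.0233 to 0.0496, and each of these 6 passed in 1 or 2 of the 6 fits, none without GR-deficient replicate 1 (adjusted p from 0.0909 to 0.228). Over all 22 lower genes, GR-deficient replicate 1 was the lowest of its group in 16, and 9 passed without it.

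The 7 genes that were higher were led by Rdh16f2 and Pigr. Rdh16f2, of the family of retinol dehydrogenases, read 9.22, 9.65 and 9.47 in control and 11.65, 10.76 and 10.89 in GR-deficient mice. Replicate 1 was again the most extreme, and the difference was 1.65 ± 0.220 with it (adjusted p = 0.00631) and 1.38 without it. Pigr, the receptor that carries polymeric immunoglobulin across epithelium, read 10.22, 10.52 and 10.91 against 11.93, 11.75 and 11.76 (1.27 ± 0.145, adjusted p = 0.00167). The GR-deficient arrays were close together and 2.41-fold above controls that varied more. Clic6, of the family of intracellular chloride channels, read 5.45, 5.82 and 5.40 against 6.80, 6.71 and 6.54 (1.12 ± 0.192, adjusted p = 0.035). Gsta4, a glutathione transferase that clears lipid aldehydes, read 9.02, 9.24 and 8.95 against 10.20, 9.95 and 9.62 (0.85 ± 0.135, adjusted p = 0.0233). Hpgd, the enzyme that inactivates prostaglandins, read 8.33, 8.13 and 7.96 against 9.12, 8.79 and 8.81 (0.77 ± 0.135, adjusted p = 0.0422). The kinase gene Stk32a, on the same chromosome as Nr3c1 (18), rose by 0.92 ± 0.144 (adjusted p = 0.0233) and Fgfbp1, a binding protein of fibroblast growth factors, by 0.58 ± 0.104 (adjusted p = 0.0497). Rdh16f2 and Pigr passed without GR-deficient replicate 1. The other 5 did not: Clic6 (adjusted p = 0.219), Gsta4 (0.117), Hpgd (0.219), Stk32a (0.149) and Fgfbp1 (0.219). Each of these 5 passed in 1 or 2 of the 6 leave-one-out fits.

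**Figure D2:**
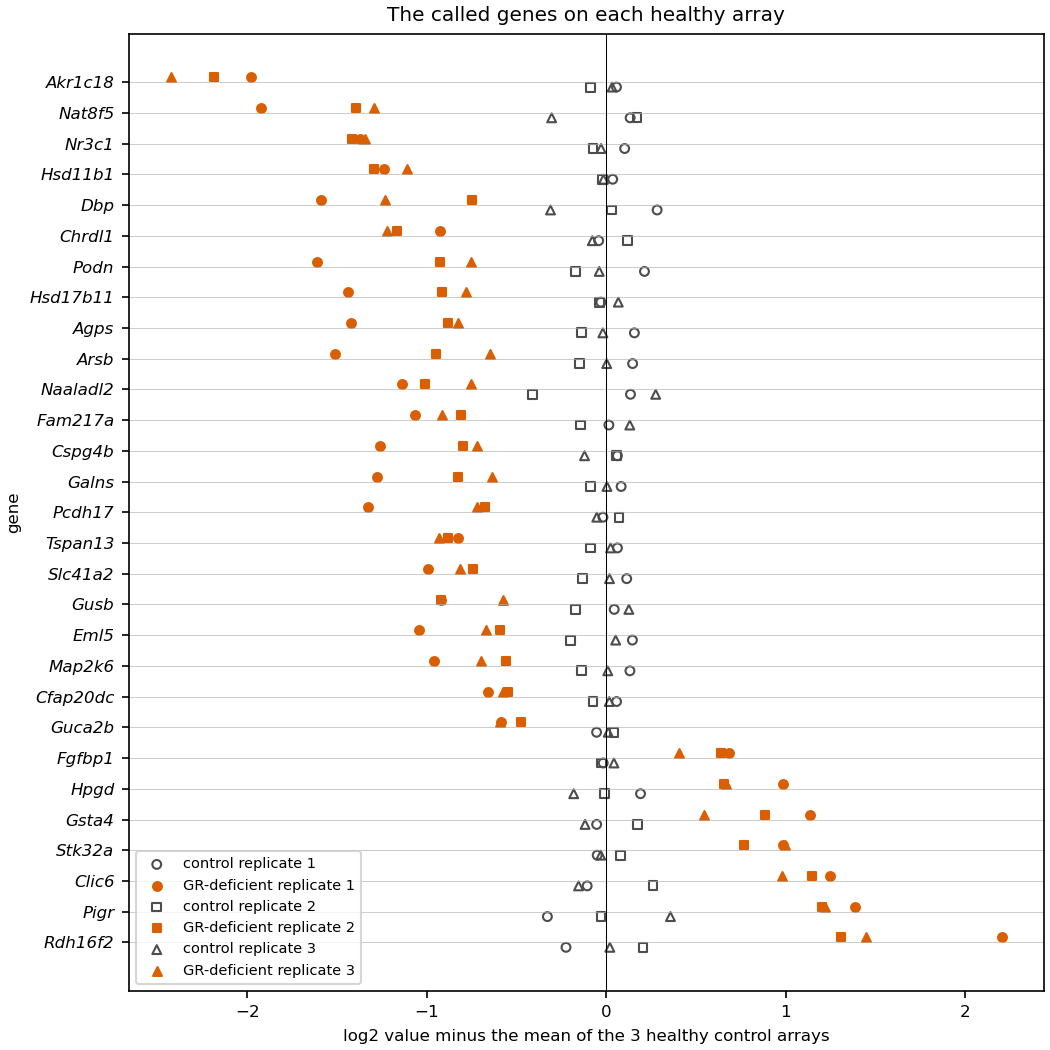
The log2 value of each of the 29 called genes on each healthy array, minus the mean of the 3 control arrays, is on the x axis. Open grey symbols are control arrays and filled orange symbols GR-deficient arrays, with 1 symbol shape per replicate number. Groups do not overlap for any of the 29, and GR-deficient replicate 1 (circles) is the most extreme of its group in 22.

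A promoter in the RefSeq table was found for 4 of the 7 higher genes, and 3 of these 4 (Pigr, Rdh16f2 and Hpgd) hold ACANNNTGT, the core of the palindrome that the GR binds. Among the 15614 tested genes with a promoter there, 6.65% hold it, and among the 17 lower genes with a promoter 1 does (Cspg4b, 5.88%). The full GR palindrome was in none of these 21 genes and in 2 of the 15614 genes. A match is only a description of these letters. The 3 sequences are shown because they are the ones with the core. They lie at chr1:130826434-130826733 (plus strand), chr10:127866226-127866525 (plus strand) and chr8:56294302-56294601 (plus strand), 5' to 3' on the gene's strand, with the core in capitals. In Pigr the second run of capitals is the E-box CACGTG, the motif of clock and other helix-loop-helix factors, which 9.5% of the 15614 genes hold.
Pigr: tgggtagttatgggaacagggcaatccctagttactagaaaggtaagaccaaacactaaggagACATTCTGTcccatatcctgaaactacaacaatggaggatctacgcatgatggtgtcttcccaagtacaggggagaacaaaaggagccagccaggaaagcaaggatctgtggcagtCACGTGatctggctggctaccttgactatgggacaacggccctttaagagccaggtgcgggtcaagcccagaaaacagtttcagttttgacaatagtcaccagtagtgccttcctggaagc
Rdh16f2: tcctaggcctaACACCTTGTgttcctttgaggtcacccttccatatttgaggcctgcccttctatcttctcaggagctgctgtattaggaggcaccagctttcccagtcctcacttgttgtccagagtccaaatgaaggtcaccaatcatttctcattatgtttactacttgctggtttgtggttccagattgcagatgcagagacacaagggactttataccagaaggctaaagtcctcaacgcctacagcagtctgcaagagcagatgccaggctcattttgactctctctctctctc
Hpgd: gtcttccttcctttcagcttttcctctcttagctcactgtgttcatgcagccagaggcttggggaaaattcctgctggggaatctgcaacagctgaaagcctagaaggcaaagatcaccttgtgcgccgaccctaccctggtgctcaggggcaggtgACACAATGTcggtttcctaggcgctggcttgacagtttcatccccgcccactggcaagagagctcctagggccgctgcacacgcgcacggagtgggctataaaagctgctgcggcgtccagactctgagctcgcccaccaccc
For the other motifs, D-box TTATGTAA was in 2 of the 17 lower genes (11.8%, against 0.999% of all) and in 0 of the 4 higher genes. TGACNNNGC was in 3 of 17 (17.6%, against 15.2%) and in 0 of 4. TTACGTAA (0.167% of all) and the HNF1 palindrome (0.0064%) were in none of the 21. All motifs were searched on both strands, and TTACGTAA, the E-box and the GR core read the same on either.

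No gene of the list of GR targets, known from other tissues, passed the threshold. Of 32 measured members, 0 passed (limma), a share near the 0.145% of all genes, 8 had an unadjusted p under 0.05 (25%, against 10.7% of all genes), 6 of them lower, and the median difference was 0.06 (-0.01 without GR-deficient replicate 1). Dusp1, a phosphatase that switches off stress kinases, came closest, with values of 10.43, 10.77 and 10.63 in control and 9.45, 9.95 and 9.88 in GR-deficient mice (-0.85 ± 0.169, adjusted p = 0.0644). Usp2, a deubiquitinase with a daily rhythm, followed (-0.66 ± 0.139, adjusted p = 0.0852). Widely used target genes lay nearer to 0 or were higher. Fkbp5, a chaperone that restrains the GR, read 9.35, 9.30 and 9.74 against 8.86, 8.94 and 9.93 (-0.22 ± 0.260, adjusted p = 0.83), with GR-deficient replicate 3 above every control. Tsc22d3, which encodes the protein GILZ (0.14 ± 0.155, adjusted p = 0.828), and Per1 (-0.27 ± 0.135, adjusted p = 0.496) had overlapping groups. Zbtb16 was higher by 0.64 ± 0.234 without passing (adjusted p = 0.343). Metallothioneins and zinc transport (0 of 17 called, 2 at an unadjusted p under 0.05, median -0.06) and Krüppel-like factors (0 of 17, 2, median 0.01) were led by Slc30a2 (-0.50, adjusted p = 0.346), Slc39a14 (-0.32, 0.411), Klf9 (-0.53, 0.179) and Klf12 (-0.36, 0.446).

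In the circadian clock list, Dbp was the only one of 20 measured members that passed (0.145% of all genes did), and 9 had an unadjusted p under 0.05 (10.7% of all genes), 8 of them lower (6.62%). The median was -0.25, and -0.18 without GR-deficient replicate 1. Further members were named after their values were seen: Tef (-0.51 ± 0.138, adjusted p = 0.184) and Per3 (-0.49 ± 0.134, adjusted p = 0.193) had negative differences, and Arntl, which encodes BMAL1, a positive one (0.61 ± 0.144, adjusted p = 0.14). None of these 3 passed. Their groups did not overlap, as was so for 18.6% of all genes, while those of Per1 did. The hour of dissection is not given in the labels, and its part in these values was not tested.

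Most genes of the proximal tubule had negative differences, but none passed. Of 25 measured members 0 passed (limma), 24 had a negative difference and 12 an unadjusted p under 0.05, with a median of -0.37 against -0.01 over all genes. Over all 19938 genes 0.145% were called, 10426 had a negative difference and 10.7% an unadjusted p under 0.05. Slc5a2, the glucose transporter SGLT2, read 11.56, 11.54 and 11.61 against 10.72, 10.81 and 11.04 (-0.71 ± 0.131, adjusted p = 0.0503), and Slc9a3, the sodium-hydrogen exchanger NHE3, 10.78, 10.77 and 10.68 against 9.88, 10.21 and 10.36 (-0.59 ± 0.128, adjusted p = 0.098). The mean level of the list was 12.41 to 12.49 on control arrays and 11.79, 12.20 and 12.29 on GR-deficient replicates 1, 2 and 3. The median was -0.17 without replicate 1. Organic ion and drug transporters had mostly negative differences as well (22 of 28), with 0 called, 13 at an unadjusted p under 0.05 (9 lower), and a median of -0.31 that was -0.13 without replicate 1. Slco1a1, an organic anion carrier, read 11.97, 11.60 and 11.72 against 10.03, 10.86 and 11.29 (-1.04 ± 0.240, adjusted p = 0.131), and Slc22a4 differed by -0.52 (adjusted p = 0.146).

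Amino acid and peptide transporters had 0 of 22 called and 6 at an unadjusted p under 0.05, with a median of -0.23, which was -0.11 without GR-deficient replicate 1. The largest difference in the list was positive: Slc7a12, an amino acid transporter, read 8.64, 8.75 and 7.40 against 10.07, 9.72 and 10.10 (1.70 ± 0.338, adjusted p = 0.0644), while Slc1a4 differed by -0.55 (adjusted p = 0.145). In the vitamin D, calcium, phosphate and hormone list, 0 of 25 passed, 11 had an unadjusted p under 0.05 and the median was -0.29 (-0.15 without that array), with Slc34a3, a phosphate transporter (-0.43, adjusted p = 0.233), and Ace (-0.50, 0.262). Gluconeogenesis and glucose handling had 0 of 24 called, 9 at an unadjusted p under 0.05 and a median of -0.26 (-0.17 without it), with Slc5a2 and Pdk3 (-0.49, adjusted p = 0.298). Cytochrome P450 and conjugation genes had 1 of 36 called, Gsta4, which was higher, while 12 of the 15 at an unadjusted p under 0.05 were lower and the median was -0.22 (-0.12 without it). These counts compare with 10.7% of all genes at an unadjusted p under 0.05 and 0.145% called. Fatty acid oxidation and lipid droplets had 0 of 23 called and 7 at an unadjusted p under 0.05, with a median of -0.004. Its members lay on both sides, from -1.41 to 1.29. The 2 with the smallest p were Cyp4a12a, a fatty acid hydroxylase (12.04, 12.02 and 12.04 against 9.86, 10.72 and 11.31, -1.41 ± 0.352, adjusted p = 0.169), and Fabp1 (0.64, adjusted p = 0.236). Sterol and fatty acid synthesis had 0 of 19 called, 4 at an unadjusted p under 0.05, and a median of -0.16, led by Elovl6 (-0.41, 0.222) and Cyp51 (-0.44, 0.234).

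For the loop, the distal tubule and the collecting duct, the list had 0 of 31 called, 5 at an unadjusted p under 0.05 and a median of 0.05, with 21 members above 0, and its mean level was 9.69 to 9.75 in control and 9.72 to 9.80 in GR-deficient mice. Slc4a1, the bicarbonate exchanger of acid-secreting cells, read 8.86, 8.84 and 8.71 against 8.08, 8.05 and 8.21 (-0.69 ± 0.128, adjusted p = 0.0503). Calb1, a calcium buffer of the distal tubule, differed by 0.48 (adjusted p = 0.217). Nephron transcription factors had 0 of 27 called and 6 at an unadjusted p under 0.05, with a median of -0.08, led by Pou3f3 (0.34, adjusted p = 0.268) and Wt1 (0.32, 0.275). Oxidative phosphorylation (0 of 19, 2, median 0.03) was led by Cox7a2 (0.29, 0.39) and Ndufa1 (0.41, 0.429). As 0.145% of all genes were called and 10.7% had an unadjusted p under 0.05, lists with 0 called are near the background.

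Of 27 measured tubular injury markers 0 passed in uninjured cortex (limma), which is near the 0.145% of all genes. An unadjusted p under 0.05 was seen for 5 (18.5%, against 10.7% of all genes). All 5 were higher, as were 4.04% of all genes at that p. The median was 0.22, which was 0.06 without GR-deficient replicate 1. The mean level of the list was 7.55 to 7.65 in control mice and 8.15, 7.64 and 7.78 on GR-deficient replicates 1, 2 and 3. Lcn2, which encodes the injury protein NGAL, read 9.94 on replicate 1 and 6.99 and 7.18 on the others, against 7.35, 7.72 and 7.62 in control mice, so that its difference of 0.47 turned to -0.48 without that array. Havcr1, the injury molecule KIM-1, turned likewise from 0.27 to -0.31. Sox9 (0.34, adjusted p = 0.333) and Krt19 (0.52, 0.355) had the smallest p. The acute phase and complement list had 0 of 23 called and 4 at an unadjusted p under 0.05, with a median of -0.003. Its largest members were Pzp, a protease inhibitor (11.24, 11.16 and 11.14 against 9.59, 10.39 and 10.68, adjusted p = 0.0803), and the fibrinogen chain Fgg (6.98, 6.92 and 6.44 against 8.21, 7.38 and 8.93, adjusted p = 0.372).

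Stress, death and inflammation lists lay close to the median of all genes. The heme, iron and antioxidant list had 0 of 19 called and 3 at an unadjusted p under 0.05 (median -0.02), led by Mgst1 (0.59, adjusted p = 0.145) and Gsr (-0.39, 0.236). Ferroptosis, necroptosis and glutathione had 0 of 22 and 3 (median -0.06), led by Gpx4, the lipid peroxide reductase (0.37, 0.263), and Casp8 (-0.88, 0.285). Casp8 read 10.69, 10.17 and 10.54 against 8.70, 9.88 and 10.18, with overlapping groups and the lowest value on GR-deficient replicate 1. Cytokines, chemokines and adhesion had 0 of 28 and 3 (median -0.05), led by Cxcl13 (-0.77, 0.124) and Cxcl16 (-0.52, 0.171). The interferon response had 0 of 20 and 1 (median 0.05), with Mx2 (-0.36, 0.337) and Ifi27l2a (0.40, 0.469). Proliferation genes had 0 of 21 and 3 (median -0.001), and Ccnd1, cyclin D1, read 11.29, 11.35 and 10.95 against 10.36, 10.64 and 10.51 (-0.70 ± 0.129, adjusted p = 0.0503), with Mcm2 next (-0.30, 0.234). Beside these counts stand 0.145% of all genes called and 10.7% at an unadjusted p under 0.05, so 0 called is near the background.

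No marker of another cell type was called, which for lists of this size is near the 0.145% of all genes. An unadjusted p under 0.05 was seen for 0 of 15 neutrophil, 2 of 17 monocyte and macrophage, 0 of 15 lymphocyte, 4 of 15 endothelial, 0 of 15 fibroblast and mural, 2 of 7 podocyte, 1 of 10 adrenal, 0 of 7 adipocyte, 0 of 11 skeletal muscle and 0 of 1 red blood cell members (limma), against 10.7% of all genes. The share was above that for endothelium (26.7%) and podocytes (28.6%). Their medians lay between -0.12 for adipocytes and 0.20 for podocytes. The members with the smallest p were S100a8 (0.27) and Elane (-0.13) of neutrophils, Itgam (-0.34) and C1qb (-0.35) of macrophages, Cd3e (-0.24) and Cd8b1 (0.23) of lymphocytes, and Ehd3 (-0.69) and Esam (0.33) of endothelium. In the other lists they were Col1a2 (0.24) and Col3a1 (0.19), Wt1 and Plce1 (0.26) of podocytes, Cyp11b1 (-0.41) and Cyp17a1 (-0.22) of the adrenal gland, Tnnt3 (0.24) and Actn3 (-0.15) of muscle, and Alas2 (-0.05). Control replicate 2 held more adipocyte signal than the other healthy arrays, with a list mean of 7.21 against 6.10 to 6.41. The brown fat gene Ucp1 was at 8.75 there, against 5.44 to 5.91 on the other 5, so that its difference of -0.89 turned to 0.19 without that array, and that of Plin1 from -0.17 to 0.001. The part of fat in the other differences was not tested. Some medians near 0 changed sign without GR-deficient replicate 1: nephron transcription factors (0.04), metallothioneins and zinc transport (0.02), oxidative phosphorylation (-0.03) and fibroblasts (-0.02).

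**Figure D3:**
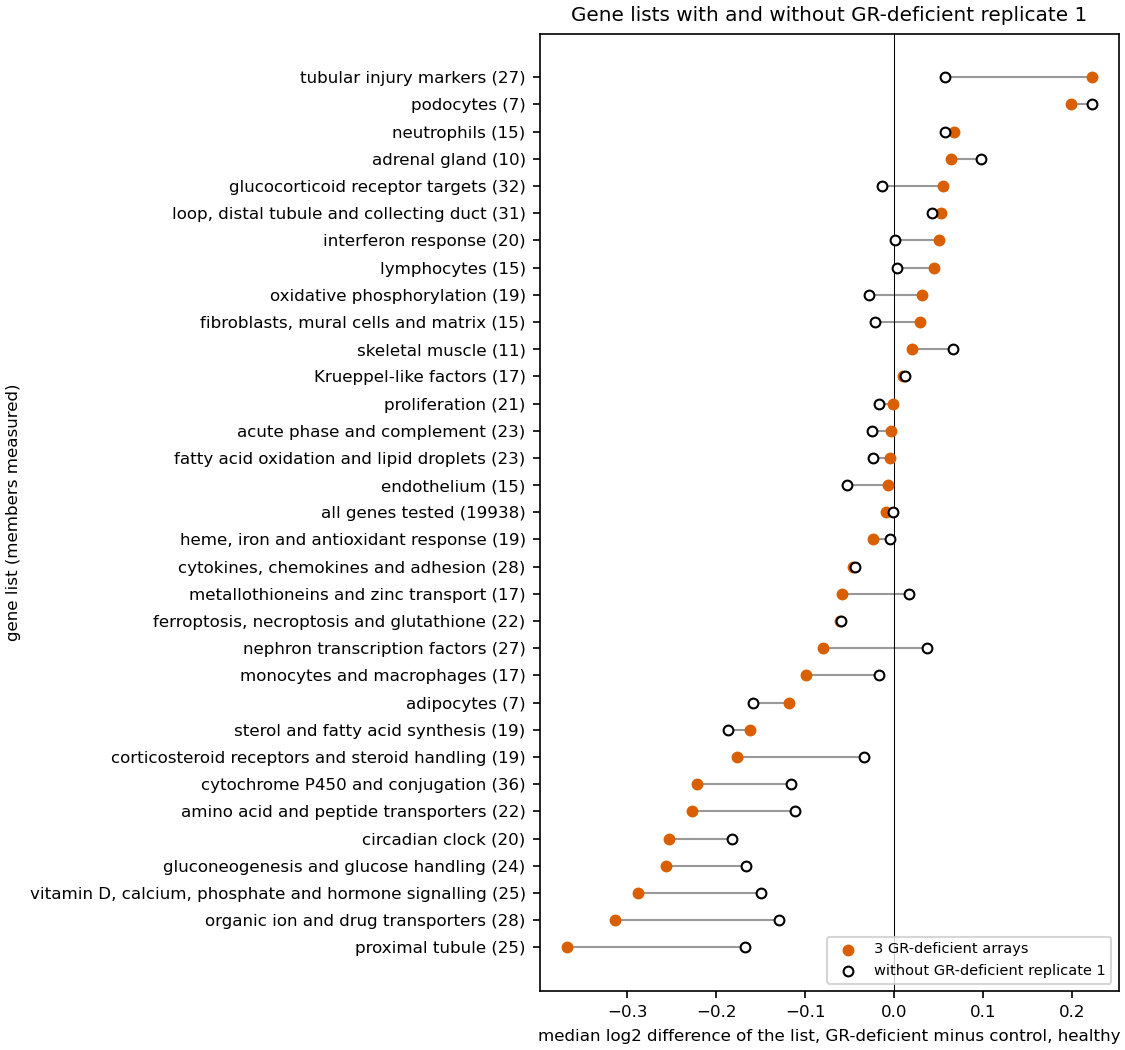
The x axis gives the median log2 difference, GR-deficient minus control in healthy mice, of each gene list with at least 5 measured members, and the y axis the list with its number of members. Filled points use all 3 GR-deficient arrays and open points leave out GR-deficient replicate 1. Among the filled points the proximal tubule list lies lowest (-0.37) and the injury markers highest (0.22). Among the open points sterol and fatty acid synthesis lies lowest (-0.19) and podocytes highest (0.22).

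The genotype difference was then set beside that in injured cortex, which comes from 6 other arrays. In injured mice the genotypes differed in 3460 genes (17.4%), 1997 higher (10%) and 1463 lower (7.34%) in GR-deficient mice. Of the 29 genes called in healthy mice, 14 also passed in injured mice, 7 in each direction. For 20 of the 29 the difference had the same sign. For the 7 genes higher in healthy mice, 5 were called higher and 1 lower after injury, and the medians were 0.92 in healthy and 1.54 in injured mice. For the 22 lower genes, 6 were called lower and 2 higher after injury, and the medians were -0.95 and -0.20. The interaction, which tests whether the 2 differences are unequal, passed for 17 of the 29. Of all genes 2283 passed (11.5%), 1473 positive (7.39%) and 810 negative (4.06%). The healthy difference that chose the 29 is a term of this test, so nothing is read from their share.

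Hsd11b1 was lower in both states, by -1.21 in healthy and -1.23 ± 0.097 in injured mice (interaction -0.016 ± 0.137, limma, adjusted p = 0.967). Its injured controls lay at 10.15, 10.15 and 10.33 and its injured GR-deficient arrays at 9.03, 8.93 and 8.99. Pigr was higher in both (1.27 and 1.64, interaction adjusted p = 0.294), as were Rdh16f2 (1.65 and 2.00, 0.558), Clic6 (1.12 and 1.59, 0.325) and Gsta4 (0.85 and 0.69, 0.663). Akr1c18 was lower in both (-2.20 and -1.29, 0.134). An interaction that does not pass does not show that 2 differences are equal. Dbp and Map2k6 turned round: Dbp differed by -1.19 in healthy and 1.14 ± 0.197 in injured mice (interaction adjusted p = 0.000158), and Map2k6 by -0.74 and 1.23 ± 0.131 (4.1e-05). In injured control mice Dbp lay at 8.18, 8.35 and 8.64, far below the healthy controls, and in injured GR-deficient mice at 9.41, 9.51 and 9.67. Stk32a turned the other way, from 0.92 to -0.46 (0.000672). Hsd17b11, Agps, Arsb, Fam217a, Cspg4b, Galns and Tspan13 were lower in healthy mice and lay between -0.172 and 0.175 in injured mice, where none of the 7 passed.

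**Figure D4:**
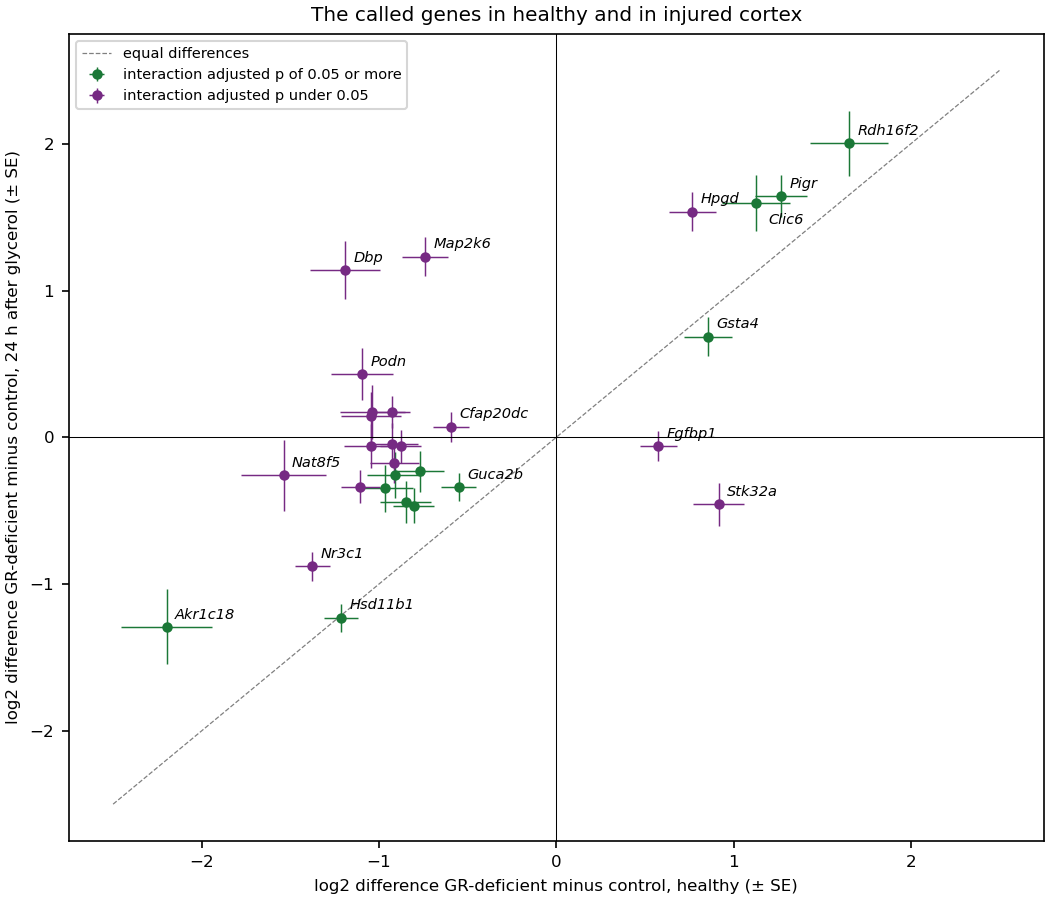
Each point is one of the 29 genes called in healthy mice, with its genotype difference in healthy mice on the x axis and in injured mice on the y axis, both in log2 units with bars of 1 SE. The dashed line marks equal differences, and purple points passed the interaction. Hsd11b1 lies on the line, Pigr, Rdh16f2 and Clic6 just above it, and Dbp and Map2k6 in the opposite quadrant.

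Pax8, whose promoter drives the recombinase, read 10.55, 10.56 and 10.34 in control and 10.60, 10.86 and 11.16 in GR-deficient mice, a difference that did not pass (0.39 ± 0.128, adjusted p = 0.281). Whether the Cre line is a transgene or an insertion at Pax8 is not given in the labels. Of the 10 nearest measured genes on each side of Pax8 in the order of the RefSeq table (GRCm38.p6), 0 of 20 passed and 2 had an unadjusted p under 0.05, with differences from -0.20 to 0.44. Around Nr3c1 0 of 20 passed and 1 had an unadjusted p under 0.05, with differences from -0.29 to 0.42 (limma). Over all genes 0.145% were called and 10.7% had an unadjusted p under 0.05, so shares of 0 of 20 are near the background.

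Just outside the threshold lay, among others, Msn, which encodes the membrane linker moesin (-0.65 ± 0.120), together with Slc5a2, Slc4a1 and Ccnd1 above, all at an adjusted p of 0.0503, while Eml5 (0.0496) and Fgfbp1 (0.0497) lay just inside. Other genes tied at 0.0503, some with larger differences, are not named here. How many genes lay inside the threshold moved with the fit.

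**Figure D5:**
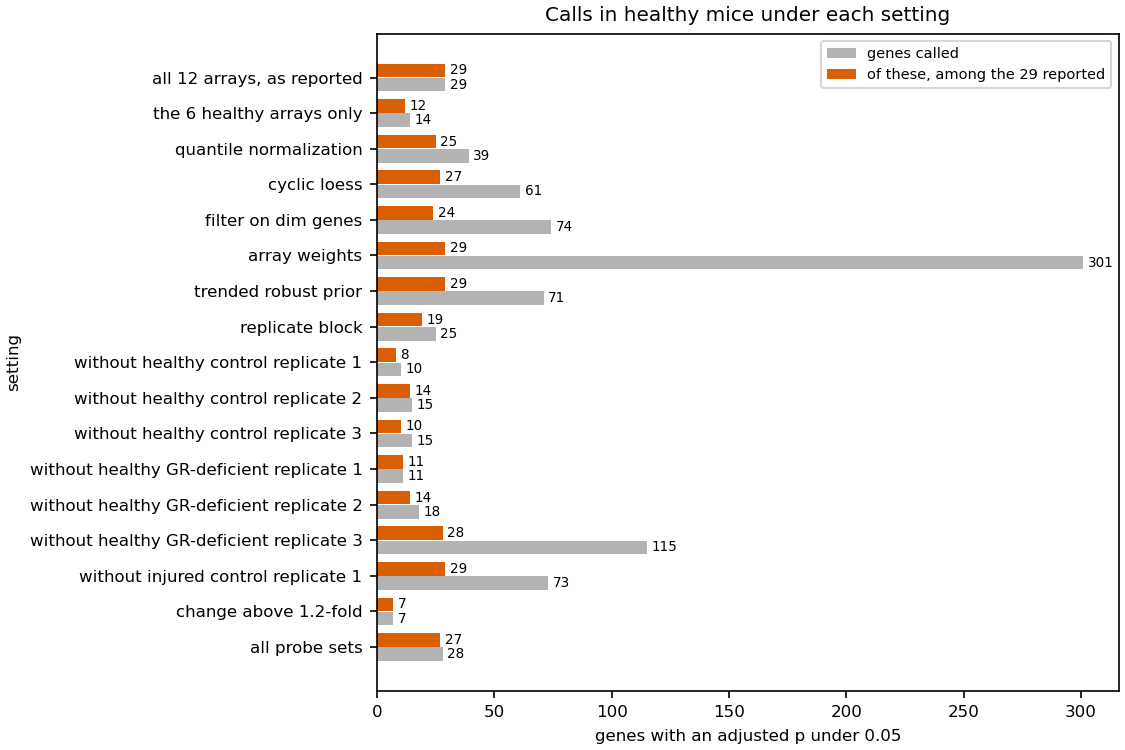
Grey bars give the number of genes with an adjusted p under 0.05 between healthy GR-deficient and healthy control mice under each setting, and orange bars how many of these are among the 29 reported genes. The number ran from 7 against a change above 1.2-fold to 301 with array weights, and the orange bars from 7 to 29. The setting of all probe sets holds only those with exactly 1 gene symbol.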

How the data were processed

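Renal cortex RNA was measured on 12 arrays in 4 groups of 3. The log2 expression values deposited by the authors come, per the submitters' processing notes, from RMA, with affy and oligo named as tools. The log base is not stated, and the largest value per array was 14.73 to 14.9. The scans themselves were not analysed here. Of 35556 probe sets, 21789 had exactly 1 gene symbol, 1621 several and 12146 none in GEO's platform annotation. For 999 genes with several probe sets the one with the highest mean was kept, which left 19938 genes, dim ones included. The test was limma 3.58.1 in R 4.3.3 (lmFit, then eBayes) with 4 group means (8 residual and 6.26 prior degrees of freedom), two-sided, with Benjamini-Hochberg adjustment over all genes and a threshold of 0.05. On simulated data for this contrast (19938 genes, 50 changed per size), 36% of changes of 0.5, 90% of 1 and 100% of 1.5 on the log2 scale were recovered, with 3 false calls among 166. The simulated noise was independent for each gene, so it held no array that stands apart as GR-deficient replicate 1 does. These shares therefore do not give the recovery in the real data. There, 40 genes differed at least 2-fold whatever the p, and 13 of them passed.

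The comparison, the gene lists and the alternatives were chosen with earlier results of these data known. Genes named are Nr3c1, Pax8, the 15 largest differences in each direction among called genes whose arrays did not overlap, and in each list the called members or the 2 with the smallest p. The remaining called genes and Fkbp5, Tsc22d3, Per1, Zbtb16, Hsd11b2, Nr3c2, Lcn2, Havcr1, Naglu (a lysosomal enzyme), Arntl, Tef, Per3 and Msn are named beyond this rule, after their values were seen. Listed genes that no such probe set measures were not analysed here.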

Additional observations from a re-analysis of the deposited data

Results flagged for a closer look

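The genotype difference in injured mice was unequal to that in healthy mice, by the interaction test at an adjusted p of 0.05 (limma, 3 arrays per group), for 17 of the 29 genes called in healthy mice (11.5% of all genes passed). The 29 were chosen by their healthy difference, which is itself a term of this test, so the 2 shares are not compared. Values are the difference in injured mice minus that in healthy mice on the log2 scale. They were positive for Dbp (2.33), Map2k6 (1.97), Podn (1.53), Nat8f5 (1.28), Arsb (1.21), Hsd17b11 (1.19), Fam217a (1.10), Agps (0.98), Cspg4b (0.88), Tspan13 (0.82), Hpgd (0.77), Chrdl1 (0.77), Galns (0.74), Cfap20dc (0.67) and Nr3c1 (0.50), and negative for Stk32a (-1.37) and Fgfbp1 (-0.64).

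The same test passed for 31 named genes that were not called in healthy mice. They had been named for the smallest healthy p of a list or after their values were seen. The healthy difference is a term of this test, so nothing is read from their number. Among these the value was positive for Slc7a12 (3.18), Usp2 (2.15), Ehd3 (1.81), Slc34a3 (1.76), Slc4a1 (1.74), Tef (1.72), Cyp51 (1.46), Slc5a2 (1.43), Hsd11b2 (1.26), Per3 (1.24), Ccnd1 (1.16), Slc9a3 (1.12), Slc30a2 (1.01), Pdk3 (0.89), Klf12 (0.89), Cxcl16 (0.76), Naglu (0.76), Elovl6 (0.73), Slc22a4 (0.70), Calb1 (0.67) and Mcm2 (0.59). It was negative for Fgg (-4.92), Havcr1 (-2.62), Sox9 (-2.47), Zbtb16 (-1.94), S100a8 (-1.50), Fkbp5 (-1.40), Slc39a14 (-1.14), Arntl (-1.04), Mgst1 (-0.77) and Col3a1 (-0.68).

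Probe sets without an entry in the probe annotation were outside the gene table. In a fit of all 35556 probe sets, 4 of 12146 such probe sets passed in healthy mice (0.0329%). Of those with 1 symbol 7 of 21789 passed (0.0321%), and of those with several symbols 0 of 1621. The 4 without an entry, 3 higher and 1 lower in GR-deficient mice, are unnamed here.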

How the results depend on the processing

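Nr3c1 kept its direction and its call in every alternative fit of the difference against 0 (-1.30 to -1.41). The number of genes called, 29, was 14 on the 6 healthy arrays only (12 of them shared), 61 after cyclic loess, 74 with a filter on dim genes (24 shared, all of the 29 that were tested), 301 with array weights, 71 with a trended robust prior and 7 against a change above 1.2-fold, and it was 10 to 115 when 1 healthy array was left out. Quantile normalization (39) and a fit of all probe sets with exactly 1 gene symbol (28) stayed within 1.5 times. In the fit of all 35556 probe sets, those without a symbol included, only 7 of the 21789 with 1 symbol passed, 1 higher and 6 lower. Without control AKI replicate 1, chosen after seeing the data, it was 73, with all 29 among them. The number that also differed 2-fold, 13, was 8 on the healthy arrays only and 6 to 37 when 1 healthy array was left out. The interaction count, 2283, was 4905 with array weights. The causes of these shifts were not tested, apart from fewer samples or genes where these were left out. Deviations of same-numbered healthy arrays correlated at -0.11, -0.019 and 0.097, and those of other healthy pairs across the genotypes at -0.164 to 0.142. So few arrays cannot show whether the replicate numbers pair the samples. With the replicate block 25 genes passed, 19 of them among the 29. No called gene changed sign under any alternative. Uncalled genes that did, with their range over the fits that leave out 1 healthy array, were Lcn2 (-0.48 to 0.998, and -0.27 with array weights), Tsc22d3 (-0.0083 to 0.256, and -0.0223 with array weights), Havcr1 (-0.31 to 0.814), Nr3c2 (-0.0789 to 0.121, with -0.0081 without control replicate 2), Alas2 (-0.194 to 0.0837, with 0.0362 without GR-deficient replicate 2), Ucp1 (-1.46 to 0.19) and Plin1 (-0.323 to 0.0013). The number of arrays limits what could be called.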
